A study of Arabidopsis thaliana with 9 samples.

Results

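Cleavage of auxin signalling transcripts by miR167 and miR393 was examined by nano-parallel analysis of RNA ends (nanoPARE) in Arabidopsis thaliana Col-0 seedlings. NanoPARE captures 5′ ends of RNA, among them the ends of the 3′ fragments that remain after a miRNA has guided the slicing of a transcript. The genes were the auxin response factors ARF6 (AT1G30330) and ARF8 (AT5G37020) and the auxin receptors TIR1 (AT3G62980), AFB1 (AT4G03190), AFB2 (AT3G26810) and AFB3 (AT1G12820). They are the known targets of both miRNAs in auxin response and were taken by locus, with earlier results of these data known. These 6 genes are among 1508 genes with a candidate slice site in at least 1 library, and they hold 18 of 3041 lines in the lists. Seedlings were 7 days old, of 1 genotype (Col 0) and grown on MS agar. Control seedlings were left unheated, HS seedlings received 1 h at 37°C, and Recovery seedlings received 1 h at 37°C followed by 2 h at 22°C. Each group had 3 libraries of total RNA from whole seedlings, which the study describes as biological replicates.

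Auxin acts as a glue between its receptors and their substrates. TIR1 and the AFB proteins are F-box subunits of an ubiquitin ligase, and in the presence of auxin they bind Aux/IAA repressors and send them to the proteasome. This frees the ARF transcription factors, which bind the promoters of auxin response genes. ARF6 and ARF8 are activating ARFs that act redundantly in hypocotyl growth, adventitious rooting and flower maturation. miR167 acts on ARF6 and ARF8 at the output of the pathway, whereas miR393 acts on the receptors at its input.

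The guides are shown because the results turn on their pairing with the targets. The lists named miR167a-5p for both ARF genes and miR393a-5p for all 4 receptors. Mature sequences were read from the RefSeq annotation of the TAIR10.1 genome, with the seed (bases 2 to 8) in capitals. miR167a-5p lies at chr3:8108090-8108110 (plus strand) and miR393a-5p at chr2:16652111-16652132 (plus strand).
miR167a-5p: uGAAGCUGccagcaugaucua
miR393a-5p: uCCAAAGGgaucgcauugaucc
miR167b has the same sequence as miR167a-5p, and miR393b-5p the same as miR393a-5p, so that an end cannot be assigned to 1 of the loci. miR167d shares the seed of miR167a-5p, whereas miR167c-5p starts its seed 1 base further along the family sequence. miR393a-5p has 22 bases. Guides of this length are known to start the production of secondary siRNAs from the transcripts they cut, as miR393 does at the receptor genes.

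The target sites are shown because they differ in how far they pair. They are given on the transcript strand of TAIR10.1, and capitals mark bases that form no Watson-Crick pair with the guide.
ARF6 site: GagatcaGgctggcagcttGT
ARF8 site: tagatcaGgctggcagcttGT
TIR1 site: gAGAcaatgcgatccctttgga
AFB1 site: gAGAcCatgcgatccctttgga
AFB2 site: gAaAcaatgcgatccctttgga
AFB3 site: gAaAcaatgcgatccctttgga
The ARF6 site is at chr1:10686478-10686498 (minus strand, exon 14 of 15) and the ARF8 site at chr5:14633841-14633861 (plus strand, exon 13 of 14). TIR1 carries its site at chr3:23273727-23273748 (minus strand, exon 3 of 3) and AFB1 at chr4:1405341-1405362 (minus strand, exon 3 of 3). AFB2 has it at chr3:9870237-9870258 (plus strand, exon 3 of 3) and AFB3 at chr1:4369085-4369106 (minus strand, exon 4 of 4). All 6 sites lie in coding sequence, between 84.9% (TIR1) and 96.8% (ARF8) of its length.

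Both ARF sites were mismatched at miRNA positions 1, 2 and 14, counted from the miRNA 5′ end, and ARF6 also at position 21. Receptor sites were paired without a gap from position 1 to position 16 and were mismatched at positions 19 and 21. AFB1 had a further mismatch at position 17, and TIR1 and AFB1 each had a G:U pair at position 20. The sites of AFB2 and AFB3 were identical. Around the cleavage position, between miRNA bases 10 and 11, every one of the 6 duplexes was paired.

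**Figure D1:**
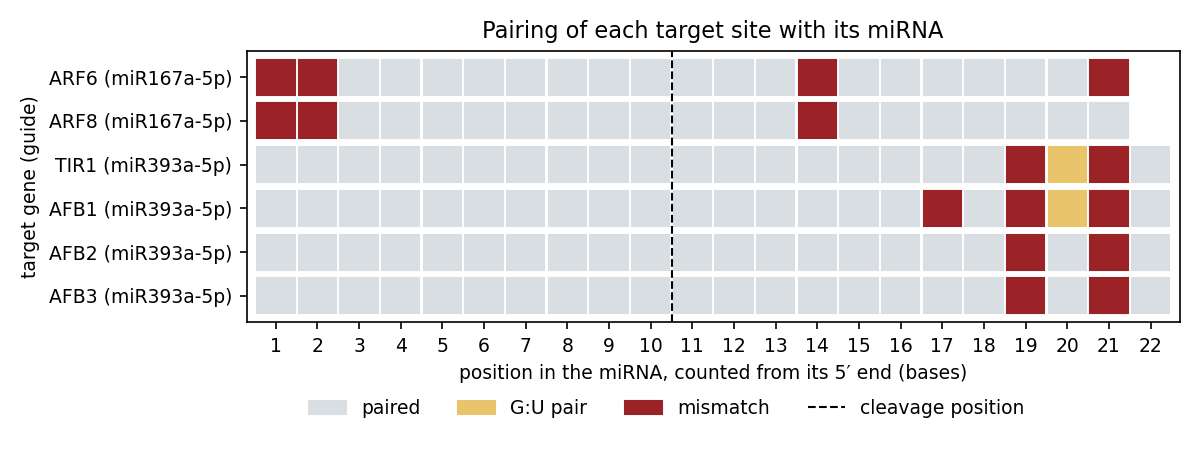
Pairing of each target site (rows) with its miRNA (columns, position in bases from the miRNA 5′ end), where grey is a Watson-Crick pair, yellow a G:U pair, red a mismatch and the dashed line the cleavage position. The 2 ARF sites have mismatches at positions 1, 2 and 14, and the 4 receptor sites have theirs at positions 17 to 21.

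The Allen score, a penalty for mispairing that the authors deposited with each line (0 for a perfect duplex, 6 for the highest value listed), was 5 for ARF6 and 4 for ARF8. It was 2 for TIR1, 3 for AFB1, and 4 for AFB2 and AFB3. A penalty computed from the pairing above (1 for a mismatch, 0.5 for a G:U pair, doubled at positions 2 to 13) equalled the deposited score for ARF6 and ARF8. It was 0.5 higher than deposited for TIR1 and AFB1, and for AFB2 and AFB3 it was 2 against a deposited 4. The deposited slice position was 1 base before the base that pairs with miRNA base 10 in ARF6 and ARF8, and 6 bases before it in AFB3. In AFB2, TIR1 and AFB1 it was 194, 256 and 264 bases before it. The cause of these shifts was not tested, and the coordinates given here are those of the sequence match.

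The start of the 3′ fragment is shown because a captured end is read from there, and related genes share it. The 30 bases that follow the cleavage position are given, with capitals where a receptor differs from any other receptor, or where the 2 ARF genes differ from each other.
ARF6 fragment: ggcagcttgtattTgttgacCGAgaGaaCg
ARF8 fragment: ggcagcttgtattCgttgacAAGgaAaaTg
TIR1 fragment: tccctttggatgtcTtcTtgTTCCgtGaGT
AFB1 fragment: tccctttggatgtcAtcTtgCTTTgtAaGT
AFB2 fragment: tccctttggatgtcTtcAtgTGAAgtCaCA
AFB3 fragment: tccctttggatgtcGtcTtgTGAAgtAaCA
These stretches follow the sites above, at chr1:10686458-10686487 for ARF6, chr5:14633852-14633881 for ARF8, chr3:23273707-23273736 for TIR1, chr4:1405321-1405350 for AFB1, chr3:9870249-9870278 for AFB2 and chr1:4369065-4369094 for AFB3. From the first base, TIR1 and AFB2 were identical over 17 bases, every other pair of receptors over 14, and ARF6 and ARF8 over 13. Over the first 50 bases, 41 were the same in TIR1 and AFB1, 44 in AFB2 and AFB3, and 40 in ARF6 and ARF8. Other pairs of receptors shared 32 to 36, with 33 in TIR1 and AFB2. In HS replicate 1 the lists gave TIR1 0.84 and AFB2 0.16 of a read, which add up to 1 read (0.340 RPM), so that the values of both genes in that library are uncertain.

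Signals are in RPM, reads at the slice position scaled to the depth of the library, as deposited. Where a site was missing from a library's list its value was set to 0 RPM, although some reads may have been there. The libraries listed 251 to 412 sites each. Taking the RPM value that occurs most often in a library as 1 read gives 2331769 to 3167323 reads for the Control libraries, 2938238 to 3985906 for HS and 3236099 to 4609739 for Recovery. The median line held 1 read in every library. All sites together summed to between 298.5 and 332.7 RPM per Control library, 170.2 to 344.9 RPM per HS library and 125.4 to 180.7 RPM per Recovery library. Genes of the heat shock list (8 of 12 listed) had a sum of 0.116 ± 0.201 RPM in Control, against 60.5 ± 25.8 in HS and 8.11 ± 2.78 in Recovery (SD, n = 3). Of the 15 photosynthesis genes 6 were listed, at 28.4 ± 7.39, 17.2 ± 10.6 and 9.63 ± 4.83 RPM, and of the 10 root genes 0 were listed. The lists hold ends near sites that resemble miRNA targets, so an unlisted marker does not show that its tissue was missing.

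Most of the signal of the 6 genes was found in Control. All of them together gave 4.29, 5.93 and 3.47 RPM in Control replicates 1 to 3, from 10, 17 and 11 reads. The HS replicates gave 1.02, 0 and 0.652 RPM and the Recovery replicates 0, 1.24 and 0.217 RPM. Every Control library was above every HS and Recovery library. HS replicate 2 and Recovery replicate 1, in which none of the 6 genes was listed, were also the libraries with the fewest lines (277 and 251), although neither had the fewest reads. The part of list length in the sums was not tested.

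Control averaged 4.56 ± 1.25 RPM, compared with 0.558 ± 0.517 in HS and 0.484 ± 0.660 in Recovery (SD, n = 3). Its mean was 8.18 times that of HS and 9.42 times that of Recovery. Leaving out HS replicate 1 moved the first ratio to 14.0 and leaving out HS replicate 2 moved it to 5.46. The second was 42.1 without Recovery replicate 2 and 6.28 without Recovery replicate 1. These sums come from 38 reads in Control, 5 in HS and 5 in Recovery, so that each rests on a small count. They are a description of the genes and carry no test.

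Output and input of the pathway were both represented. The ARF genes of miR167 gave 2.94 ± 0.850 RPM in Control, with 0.217 ± 0.376 in HS and 0.206 ± 0.357 in Recovery, from 25, 2 and 2 reads. The receptor genes of miR393 gave 1.62 ± 0.859, 0.340 ± 0.589 and 0.278 ± 0.314 RPM, from 13, 3 and 3 reads (SD, n = 3). For the ARF genes, every Control library (2.14 to 3.84 RPM) lay above all others (at most 0.652 RPM). For the receptors the groups overlapped, since Control replicate 3 had 0.631 RPM and HS replicate 1 had 1.02 RPM. Of the latter, 0.681 RPM were 2 reads of AFB1, equal to their local background. Among the 322 single sites tested below, every Control library was above every HS library at 10.2% and above every Recovery library at 15.8%. No such share was computed for sums, and a difference between the 2 guides was not tested.

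**Figure D2:**
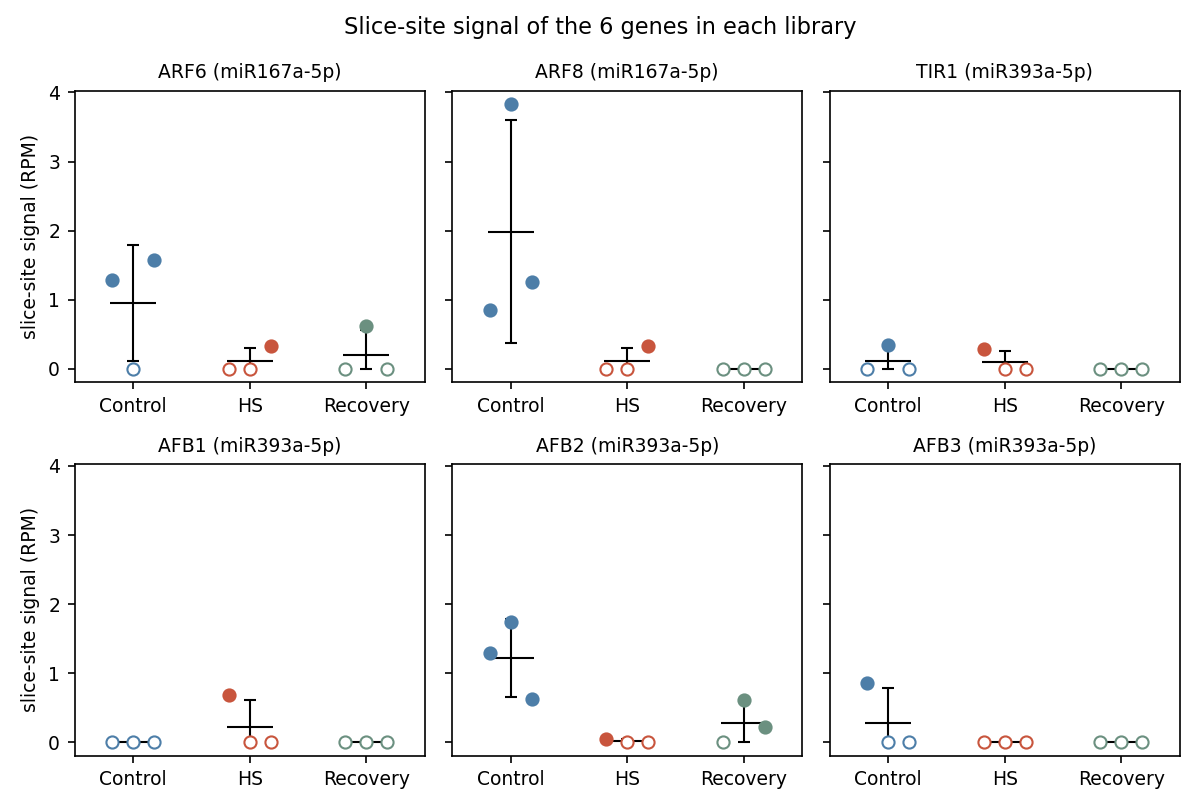
Slice-site signal (RPM, vertical axis) of each gene in the 3 libraries of each group, where filled points are listed lines, open points are libraries that did not list the site, long dashes are means and bars are 1 SD, cut at 0. ARF8 and AFB2 have all 3 Control libraries above all HS and Recovery libraries, and AFB1 was listed in HS replicate 1 alone.

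ARF8 carried the highest signal of the 6 genes in Control. It had 0.858, 3.84 and 1.26 RPM in Control replicates 1 to 3 (2, 11 and 4 reads), 0, 0 and 0.326 RPM in HS (1 read in replicate 3) and was unlisted in each Recovery library. Control replicate 2 gave more than the other Control libraries together, and the Control range did not overlap with that of HS or Recovery. Its Control mean, 1.99 ± 1.62 RPM (SD, n = 3), was the 12th highest of the 847 sites listed in Control.

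AFB2, an F-box receptor of the same ligase as TIR1, was listed in more libraries than any other of the 6 genes, 6 of 9. It had 1.29, 1.74 and 0.631 RPM in Control (3, 5 and 2 reads), 0.0545, 0 and 0 RPM in HS, and 0, 0.618 and 0.217 RPM in Recovery (2 and 1 reads). The single HS value is 0.16 of a read, which adds up to 1 read with the TIR1 value of that library. Whether both come from the same read was not tested. All Control values were above all HS and Recovery values, narrowly so between Control replicate 3 and Recovery replicate 2.

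ARF6, the closest relative of ARF8, was listed in 4 libraries. It had 1.29, 0 and 1.58 RPM in Control (3 and 5 reads), 0, 0 and 0.326 RPM in HS (1 read) and 0, 0.618 and 0 RPM in Recovery (2 reads). Because Control replicate 2 did not list it, Control overlapped with both other groups. That library had the highest ARF8 signal.

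The remaining receptors were each listed in 1 or 2 libraries. TIR1, the receptor with which the family was first described, had 0.349 RPM in Control replicate 2 (1 read) and 0.286 RPM in HS replicate 1. AFB1, a receptor known for fast, non-transcriptional auxin responses of roots, had 0.681 RPM (2 reads) in HS replicate 1. AFB3, a close paralogue of AFB2, had 0.858 RPM (2 reads) in Control replicate 1. At 1 or 2 reads, a difference between groups was not detectable for these genes at this depth.

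In Control the order of the means was ARF8 (1.99 ± 1.62 RPM), AFB2 (1.22 ± 0.559), ARF6 (0.955 ± 0.840), AFB3 (0.286 ± 0.495), TIR1 (0.116 ± 0.201) and AFB1 (0; SD, n = 3). Neighbours in this order differed by less than the larger of their SDs. One captured end is counted per fragment, so the values are comparable without a correction for transcript length. The order did not follow the deposited Allen score, since TIR1, with the lowest (2), was below ARF6, with the highest (5). The TIR1 mean rests on 1 read. In HS the order was AFB1 (0.227 ± 0.393 RPM), ARF6 and ARF8 (0.109 ± 0.188 each), TIR1 (0.0953 ± 0.165), AFB2 (0.0182 ± 0.0314) and AFB3 (0), with neighbours again closer than the larger of their SDs. In Recovery only AFB2 (0.278 ± 0.314 RPM) and ARF6 (0.206 ± 0.357) were listed. Across the 9 libraries, the log2(RPM + 1) values of ARF8 and AFB2 had a Pearson r of 0.82, ARF6 and AFB2 of 0.44, and ARF6 and ARF8 of 0.26. These libraries include the 3 groups, and the r values are given as a description.

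Whether an end stands out from its surroundings was read from the deposited fold, which is the slice-site RPM plus 1 over a local background RPM plus 1. The fold was above 1 in 11 of the 18 lines (61.1%), against 21.4% of all 3041 lines, with medians of 1.23 and 0.806. By group, this was 7 of 10 lines in Control, 1 of 5 in HS and 3 of 3 in Recovery. The share over all lines was not split by group, so that these counts are a description. The median Allen score was 4 for the 18 lines and 5.5 for all lines, and the median line held 2 reads against 1.

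ARF8 exceeded its background in all 4 of its lines. In Control the signals of 0.858, 3.84 and 1.26 RPM stood against backgrounds of 0, 1.40 and 0.316 RPM, and the HS signal of 0.326 RPM against 0. AFB2 had 1.29 and 1.74 RPM over backgrounds of 0.429 and 1.05 RPM in Control replicates 1 and 2, and equalled its background of 0.631 RPM in replicate 3. In Recovery it had 0.618 and 0.217 RPM over 0 and 0.108 RPM, and its HS value of 0.0545 RPM lay under 0.0613 RPM. ARF6 was above background in Control (1.29 over 0.858 RPM and 1.58 over 0.631 RPM) and in Recovery (0.618 over 0.309 RPM), and level with it in HS (0.326 RPM). By contrast, both TIR1 lines (0.349 and 0.286 RPM) lay under their backgrounds of 1.05 and 0.681 RPM. The AFB3 line (0.858 RPM) lay under 1.72 RPM, and the AFB1 line equalled its background of 0.681 RPM.

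**Figure D3:**
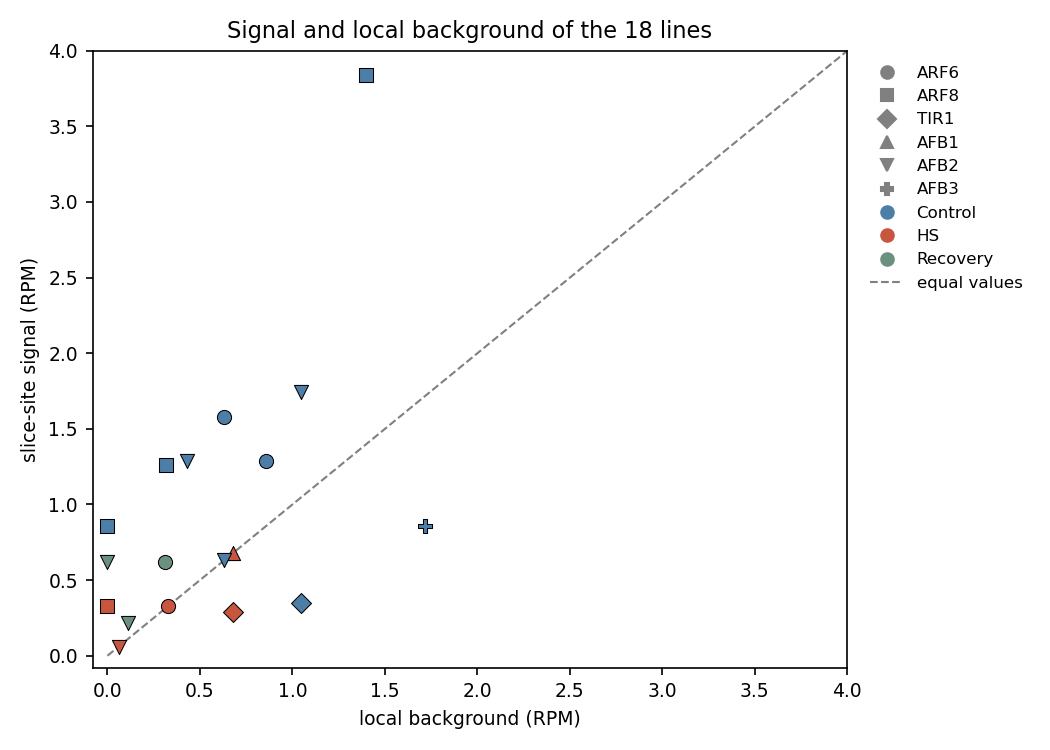
Slice-site signal (RPM, vertical axis) against local background (RPM, horizontal axis) of the 18 lines of the 6 genes, with symbols for genes, colours for groups and a dashed line at equal values. ARF8 lies above the line in 4 of 4 points, and TIR1, AFB3 and the HS point of AFB2 lie below it.

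The authors' adjusted p, which their pipeline gives to each line, was under 0.05 in 3 of the 18 lines (16.7%) and in 126 of all 3041 lines (4.14%). The 3 lines were ARF8 in Control replicates 2 and 3, with 0.0289 and 0.0497, and TIR1 in Control replicate 2, listed at 0. The TIR1 value belongs to a line of 1 read below its background. No line of the 6 genes in HS or Recovery was under 0.05, and the lowest there was 0.0852 for AFB2 in Recovery replicate 2. The genes had only 5 lines in HS and 3 in Recovery, and the share over all lines was not split by group. With 4.14% of all lines under 0.05, none among so few lines is no sign of a loss.

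The first comparison asked how cleavage ends differed at the end of the heat treatment. Of the 3 genes that could be tested, ARF8 was called lower in HS than in Control, and AFB2 and ARF6 did not pass. Only these 3 of the 6 genes were listed in at least 3 of the 9 libraries and entered the limma fit over 322 sites. ARF8, listed in 3 Control libraries and 1 HS library, entered only through Control. AFB2 was listed in 3 Control, 1 HS and 2 Recovery libraries. A site that enters only because Control is high is favoured to be lower elsewhere, so the call of ARF8 is given as a description of these libraries. A fit over all 1662 listed sites, of which 605 were listed in at least 2 libraries, gave ARF8 a limma adjusted p of 0.0356. The limma adjusted p of AFB2 was 0.152 there and that of ARF6 0.515. These sites also enter by being listed, and the genes were chosen with earlier results known, so this fit is no independent support. ARF8 went from 1.99 ± 1.62 to 0.109 ± 0.188 RPM (SD, n = 3), a log2 change of −1.31 (SE 0.37, limma adjusted p = 0.0427). AFB2 went from 1.22 ± 0.559 to 0.0182 ± 0.0314 RPM, a log2 change of −1.09 (SE 0.33, limma adjusted p = 0.0670). ARF6 went from 0.955 ± 0.840 to 0.109 ± 0.188 RPM, a log2 change of −0.72 (SE 0.37, limma adjusted p = 0.364).

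Over all 322 sites, 5 (1.55%) were called lower in HS, and ARF8 was 1 of them. Every Control library was above every HS library at 2 of the 3 tested genes (ARF8 and AFB2) and at 33 of 322 sites (10.2%). The median log2 change was −1.09 for the 3 genes and −0.13 for all sites. These counts share the filter and support nothing by themselves. The ARF8 call rests on a few libraries, since its limma adjusted p was 0.138 without Control replicate 2. Leaving out HS replicate 1, 2 or 3 gave 0.133, 0.117 or 0.0542. Without Recovery replicate 1 or 3 it was 0.0596 or 0.0784, and it was 0.0825 after scaling every library to the same summed RPM. AFB2 passed without Control replicate 3 (limma adjusted p = 0.0368). That ARF8 passed the threshold and AFB2 did not is no evidence that they differ, and this difference was not tested.

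The second comparison asked whether ends had come back after 2 h at 22°C. ARF8 was called lower in Recovery than in Control, with the same limit, since it entered the fit through Control. It was listed in no Recovery library, and its log2 change was −1.45 (SE 0.37, limma adjusted p = 0.0313), a size set in part by the pseudocount and not to be read as a bound. In the fit over all 1662 sites, which is no independent support here either, its limma adjusted p was 0.0276. AFB2 stood at 0.278 ± 0.314 RPM, a log2 change of −0.79 (SE 0.33, limma adjusted p = 0.184), and ARF6 at 0.206 ± 0.357 RPM, a log2 change of −0.62 (SE 0.37, limma adjusted p = 0.319; SD, n = 3). Of 322 sites, 7 (2.17%) were called lower in Recovery, with ARF8 among them. Control lay wholly above Recovery at ARF8 and AFB2 and at 51 sites of 322 (15.8%). The median log2 change was −0.79 for the 3 genes and −0.15 for all sites.

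Scaling every library to the same summed RPM moved the median of all sites in this comparison by 0.13, from −0.15 to −0.02. On that scale ARF8 changed by −1.25 (limma adjusted p = 0.0701), AFB2 by −0.53 and ARF6 by −0.43, with their directions kept. The limma adjusted p of ARF8 in Recovery was 0.109 without Control replicate 2, and 0.129, 0.0883 and 0.140 without Recovery replicates 1, 2 and 3. The HS and Recovery comparisons share the Control libraries and are therefore not independent.

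The third comparison set Recovery against HS directly. None of the 3 genes passed, in the limma fit or at an unadjusted p under 0.05. Of all 322 sites, 3 (0.932%) were called in either direction and 38 had an unadjusted limma p under 0.05. Beside these shares, none of 3 genes passing shows nothing particular to them. The log2 change was 0.30 for AFB2 (SE 0.33, limma adjusted p = 0.796), 0.10 for ARF6 (SE 0.37, limma adjusted p = 0.956) and −0.14 for ARF8 (SE 0.37, limma adjusted p = 0.938). AFB2 was listed in 2 Recovery libraries with 3 reads in all and in 1 HS library with 0.16 of a read. At this depth a return of the signal during recovery was not detectable, and its absence is not shown. Less cleavage, less of the target transcript and fewer cells that express it cannot be told apart from end counts of whole seedlings.

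**Figure D4:**
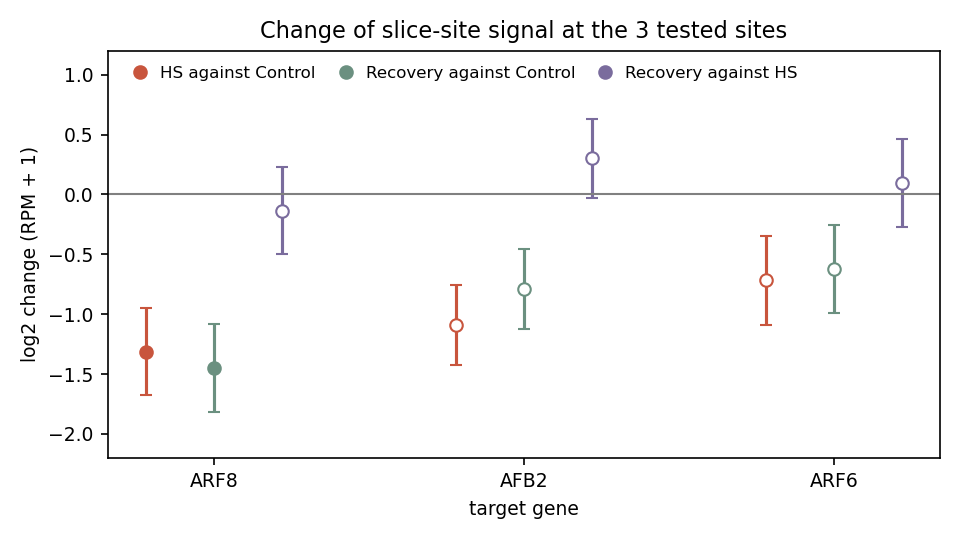
Log2 change of slice-site signal (RPM + 1, vertical axis) at ARF8, AFB2 and ARF6 in the 3 comparisons, with bars of 1 SE from limma and filled points for an adjusted p under 0.05. ARF8 is filled in both comparisons with Control (−1.31 and −1.45), and no gene is filled for Recovery against HS.

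A list of 57 other genes of auxin perception and response (ARFs, Aux/IAA repressors, the receptors AFB4 and AFB5, ligase subunits and miRNA-related genes) was set beside the 6. Of these, 10 were listed at 13 sites, 4 of which entered the fit. In HS and in Recovery, 2 of the 4 were called lower than Control and 0 higher, beside 1.55% and 2.17% of all sites called lower. Between Recovery and HS 0 of 4 were called or had an unadjusted limma p under 0.05. Among all 322 sites these counts were 3 and 38, so that 0 of 4 shows nothing particular to the list. The sites called lower than Control were those of ARF10 and ARF17, repressing ARFs and targets of miR160a-5p. ARF10 had 5.575, 4.534 and 4.104 RPM in Control, 0 in every HS library and 0.217 RPM in Recovery replicate 3 alone (log2 changes −2.51 and −2.42, limma adjusted p = 6.98e-05 and 0.000250). It too entered the fit through Control, and it passed in 17 of 17 alternatives in both comparisons. These alternatives reuse the same values and a choice of sites favoured by high Control, so that they are no independent support. ARF17 had 1.72, 6.63 and 4.42 RPM in Control, 0.251 to 1.02 RPM in HS and 0 to 1.302 RPM in Recovery (log2 changes −1.58 and −1.75, limma adjusted p = 0.0467 and 0.0397). Its call held in 5 of 17 alternatives in HS and 11 of 17 in Recovery. With rescaled libraries the limma adjusted p was 0.131 and 0.115, over all 1662 sites 0.289 and 0.250, and without Control replicate 2 0.163 and 0.112.

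ARF16, the remaining miR160 target, ranged from 0.316 to 0.698 RPM in Control and did not appear in the HS lists (log2 change −0.56, limma adjusted p = 0.306). IAA16, an Aux/IAA repressor paired with miR391-3p at an Allen score of 4.5, was listed in 3 libraries and changed by 0.06 in HS (limma adjusted p = 0.971). IAA9, another repressor, was listed at 3 sites, none of them in more than 2 libraries and each with at most 3 reads. AFB4 and AFB5, the receptors of the other branch of the family, were not listed. Signal over the 57 genes averaged 10.7 ± 2.16 RPM in Control, with 1.58 ± 0.721 in HS and 0.965 ± 1.43 in Recovery (SD, n = 3). Most of the Control sum came from ARF10 (mean 4.74 RPM) and ARF17 (4.25 RPM), and only 10 of the 57 genes were listed. The sum is therefore no sign of a drop across the list.

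A further gene with a miR393a-5p line was AT3G23690, which encodes bHLH77, a transcription factor. Its site is shown for comparison with the receptor sites, again with unpaired or G:U bases in capitals.
bHLH77 site: ggGtcaGAgcgatccctttggC
The site is at chr3:8530587-8530608 (minus strand, exon 1 of 7), in the coding sequence. It had 0.349 RPM (1 read) in Control replicate 2 and an Allen score of 3. A second site in the gene, paired with miR865-5p, had 0.651 RPM (3 reads) in Recovery replicate 3.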

How the data were processed

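NanoPARE reads of 9 libraries were processed by the authors with the public nanoPARE pipeline. Per the labels the build was TAIR10. Not given in the sources used here were aligner, version and settings. Each library's deposited list gives slice-site RPM, a ratio to local background (fold), the authors' adjusted p-value and a deposited Allen score. The fold, solved as (RPM + 1)/(background + 1), gave whole-read backgrounds in 93.2% of lines. Between 89.2% and 94.1% of RPM values were whole multiples of 1 read within 0.01, the rest were fractions, and no count model was fitted. Read numbers carry counting error, and PCR copies were not separated.

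Sites (transcript and position) listed in at least 3 of 9 libraries (322 of 1662) were fitted with limma 3.58.1 (R 4.3.3, lmFit, eBayes with trend) on log2(RPM + 1), all libraries in 1 fit, with Benjamini-Hochberg adjustment over sites and a threshold of 0.05. Changes on this scale understate those of low sites. The fit was also run on simulated data, with large planted changes at sites whose means had been raised. That run does not bear on calls at the low read numbers seen here. Alternatives were pseudocounts of 0.5 and 0.1, other filters, rescaled libraries, 2 groups only, values per locus, a replicate block and leaving out each library.

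Genes named were the 6 genes, other genes with miR167 or miR393 lines (at most 8 by summed RPM), genes of the auxin list in at least 2 libraries, and, for ARF8 and AFB2, the 3 sites of most similar pattern. Members and lists were chosen with earlier results of these data known. Groups came from the titles and treatment labels. Sequences were matched to TAIR10.1 (RefSeq) with Python 3.11.15, NumPy 2.4.6 and pandas 2.3.3, and coordinates are 1-based. The symbol of AT4G03190 is GRH1 in RefSeq.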

Additional observations from a re-analysis of the deposited data

How the results depend on the processing

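The mean sum of the 6 genes in each group moved by less than 1 SD with rescaled libraries and with values in reads. Leaving out 1 of 3 libraries cannot move a mean by 1 SD, so that check decides nothing for the means. The ratios between groups moved more when 1 library was left out. ARF8 was the only one of the 6 genes called in the main fit, and its direction did not reverse. This was fixed in advance in every alternative except rescaled libraries, since every Control value was above every HS and Recovery value. ARF8 kept its call in 9 of 17 alternatives for HS against Control and in 12 of 17 for Recovery against Control. AFB2 passed in 3 of 17 for HS (pseudocount 0.1, sites in at least 4 libraries, and without Control replicate 3) and in 0 of 17 for Recovery, and ARF6 in 0 of 17 for both. Of the 6 genes, 1 was called in HS. This became 2 with a pseudocount of 0.1 and with sites in at least 4 libraries, 0 with rescaled libraries and 0 with the 2 groups only, and 0 to 2 when 1 library was left out. In Recovery the count of 1 became 0 with rescaled libraries and 0 to 1 when 1 library was left out. Over all sites, 16 were called in HS against Control. The count was 9 with rescaled libraries (1 lower and 8 higher, against 5 and 11), 6 with the 2 groups only and 7 to 15 with 1 library left out. For Recovery against Control, 9 became 30 with a pseudocount of 0.1, 4 without a filter, 19 with sites in at least 4 libraries, 5 with rescaled libraries (2 lower and 3 higher, against 7 and 2), 14 with the 2 groups only and 1 to 14 with 1 library left out. For Recovery against HS, 3 became 5 without a filter, 7 with sites in at least 4 libraries, 5 per locus and 2 to 13 with 1 library left out. The cause of these moves was not tested.

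Titles give the groups the same replicate numbers, and same-numbered libraries did not deviate together. Their correlations ran from −0.0978 to 0.0991 over 9 pairs, and 2 of 9 matches were best with the own number. With a replicate block, 14, 11 and 3 sites were called in the 3 comparisons, and the limma adjusted p of ARF8 was 0.0401 in HS and 0.0369 in Recovery. Depth limits every statement, since the 6 genes hold 48 reads in all.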

Other observations

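Guides of both families were also listed outside the 6 genes and were mostly weakly paired there, with 3 lines at an Allen score of at most 4. There were 32 such sites in 49 lines, a fold above 1 in 24.5% of the lines and a median Allen score of 5.5, and 22 of the sites were listed in 1 library. Star strands accounted for 9 sites of miR167 and 13 of miR393, and the 5p strands for 9 and 1. The 8 genes with the highest summed RPM were the aleurain-like protease ALP (AT5G60360), AT2G14910, AT4G31290, RPS1 (AT5G30510), AT3G54470, AT5G19030, AT1G80570 and AT3G45310. Each had an Allen score of at least 5, and ALP alone was listed in more than 3 libraries. At ALP, a miR167a-5p site with a score of 5.5 had 2.57, 1.40 and 0.947 RPM in Control, 0.251 to 0.681 RPM in HS and 0.291, 0 and 0 RPM in Recovery. Its log2 changes were −0.86 in HS and −1.23 in Recovery (limma adjusted p = 0.218 and 0.0632). RPS1 changed by 0.05 and −0.28 and AT3G54470 by −0.04 and 0.10 (limma adjusted p from 0.530 to 0.971).

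One line of these guides had an authors' adjusted p under 0.05, and it was picked after its values were seen. It is a miR167d site in AT3G61310, with an Allen score of 2.5 and 0.631 RPM (2 reads) in Control replicate 3, the only library to list it.

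The sites whose pattern over the 9 libraries was most like that of ARF8 were in AT3G56020 (miR831-3p, Pearson r = 0.94), RAP2.12 (miR396a-5p, r = 0.90) and ARF17 (miR160a-5p, r = 0.90). Those most like AFB2 were in AT5G62890 (miR4227, r = 0.91), HAM1 (miR171a-3p, r = 0.90) and PIP2A (miR5638b, r = 0.89). ARF17 and HAM1 have Allen scores of 0.5 and 0, and the other 4 have a score of 6. These values compare log2(RPM + 1) over libraries that share groups and are given as a description.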
